A study of Mus musculus with 24 samples.

Results

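Pre-selection double positive (DP) thymocytes of the NOD strain were compared with those of the B10 strain, on the 6 NOD and 6 B10 arrays titled double positive out of 24 arrays in the series. Both strains carried the H2k haplotype, as C57BL10.H2k (B10k) and as NOD congenic for H2k (NODk), and all mice carried the transgenic 3A9 TCR, which recognises a hen egg lysozyme peptide. In each strain 3 DP pools came from mice with the TCR alone and 3 from mice that also carried insHEL, in which an insulin promoter drives hen egg lysozyme (TCR insHEL, called Dbl in the labels). Pools were sorted from female mice of 6 to 8 weeks as CD4+CD8+ cells negative for CD69 and for the 1G12 clonotype, the cells the study calls pre-selection (PreS). The other 12 arrays hold early single positive (SP) cells, sorted as CD4+CD8low CD69+ 1G12+, 3 pools in each strain from TCR mice (S+) and 3 from TCR insHEL mice (S-). All mice express the transgenic receptor, so receptor rearrangement and expression in these pools are not those of a normal repertoire, and each array holds 1 sorted pool whose RNA was amplified in vitro.

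DP thymocytes rearrange the TCR alpha locus, carry both coreceptors and live or die according to how their receptor meets self peptide on MHC. They form from double negative precursors, in which Notch receptors and the pre-TCR drive expansion, and Notch signals are known to fall as DP cells become quiescent. NOD mice develop autoimmune diabetes and the comparison asks which transcripts already differ between the strains before selection begins.

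NOD DP thymocytes had more mRNA of Dntt, the terminal transferase that adds random bases at receptor junctions, of Bex1, an X-linked adaptor protein, and of Clic4, a chloride intracellular channel protein. They had less of Usp39, a spliceosome component, of Slc15a2, a peptide transporter, and of Dtx1, Notch1, Nrarp, genes of the Notch pathway, and of Ptcra, the pre-TCR alpha chain. Several interferon-induced genes were also lower, among them Oas1a and Usp18. Of 12838 probesets (sets of oligonucleotides on the array, each aimed at 1 transcript) kept by a filter on low signals, 530 (4.13%) passed a limma adjusted p of 0.05, 212 higher in NOD (1.65%) and 318 lower (2.48%). Each difference for DP cells is taken from 6 NOD and 6 B10 arrays and is given as NOD minus B10 on the log2 scale. Its SE and adjusted p also use the spread of the 12 SP arrays, which were in the same fit. In a fit of the 12 DP arrays alone 420 probesets passed, 378 of them among the 530. At 1 probeset for each of 7831 genes the count was 341 (4.35%), 140 higher (1.79%) and 201 lower (2.57%). The median log2 difference over all kept probesets was -0.00975. Among the 530 the median size was 1.17 on the log2 scale, 332 differed by at least 2-fold, 80 by at least 4-fold and 32 by at least 8-fold. These sizes are fitted values, and for 171 of the 530 the mean of the lower strain lay under 32, the limit of the filter. NOD and B10 arrays did not overlap for 415 probesets (3.23%), and 322 of the 530 were among them.

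The labels were checked against marker genes before the strains were compared. Cd8a, a CD8 coreceptor chain, lay at a signal of 1808.8 to 3385.7 on the 12 DP arrays and at 179.6 to 680.6 on the 12 SP arrays. Ccr7, the receptor that draws selected thymocytes to the medulla, lay at 6.6 to 51.7 on DP and 376.6 to 966.4 on SP arrays. Trim12a, a tripartite motif protein, was at 0.3 to 6 on all 12 NOD arrays and at 154.7 to 532 on all 12 B10 arrays, so no array went against its strain label. Of the DP arrays NOD TCR insHEL replicate 1 stood furthest apart, with a mean correlation of 0.887 with the other NOD DP arrays and an array weight of 0.244 where the median was 1.05. It also had the highest ratio of 3' to 5' control signals, a measure of RNA integrity after amplification, at 4.94 on the log2 scale. NOD TCR insHEL replicate 3 was the only DP array that correlated more with the other strain (0.922) than with its own (0.916). The 3' to 5' ratio ran from 1.41 to 4.94 (median 2.89) on NOD and from 1.06 to 2.75 (median 1.57) on B10 DP arrays, a difference of 1.23 (exact two-sided permutation test over 924 regroupings, p = 0.0714, n = 6 and 6). Without NOD TCR insHEL DP replicate 1, 446 probesets passed the test and with the ratio as a covariate 492 did, of which 407 and 395 were among the 530. Summed signals of B cell markers were 3578 to 8231 on NOD and 3428 to 4788 on B10 arrays, nearly all of it Ighm, while Pax5 and Ebf1 were near background in both strains. Over the 6 B cell markers kept the median difference was -0.597 with 5 negative, Ighm being the exception. Summed granulocyte markers were 117.7 to 1278 on NOD and 276.5 to 3404 on B10 arrays (median -0.654, 6 of 6 negative), and macrophage and dendritic cell markers 1681 to 3879 and 1531 to 4384 (median -0.226, 8 of 13 negative). Natural killer markers, mostly Gzma, summed to 2638 to 5863 and 2530 to 4186 (median -0.16, 5 of 6 negative), thymic epithelial markers to 112.1 to 196.3 and 173.4 to 237.7 and erythroid markers to 44.1 to 54.7 and 36.3 to 56.6. Of all these markers Blk (-1.25, limma adjusted p = 0.00512) and Nkg7 (-1.25, adjusted p = 0.00564) were called, both lower in NOD. The part of other cells in the strain differences was not tested. In sorted pools fewer cells of a type and less RNA per cell cannot be told apart.

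TCR and TCR insHEL mice gave separate estimates of the strain difference that share no array, although their tests share 1 estimate of the spread. In TCR mice 145 probesets passed (1.13%), 58 higher (0.452%) and 87 lower (0.678%) in NOD, and in TCR insHEL mice 504 passed (3.93%), 207 higher (1.61%) and 297 lower (2.31%). Of the 145 calls in TCR mice 144 had the same sign in TCR insHEL mice and 92 were called there too, which is 63.4% of the calls in TCR mice and 18.3% of those in TCR insHEL mice. Of the 504 calls in TCR insHEL mice 418 had the same sign in TCR mice, where 59.2% of all probesets had the same sign in both. The TCR insHEL count was 170 without NOD TCR insHEL DP replicate 1 and 1537 without NOD TCR insHEL DP replicate 3, so single arrays set its size. No probeset passed the test of whether the strain difference itself differed between TCR and TCR insHEL mice (limma interaction, smallest adjusted p = 0.126), while 1157 (9.01%) had an unadjusted p under 0.05, and 2 passed with hybridization day as a random block. DP arrays of both strains were hybridized together on 3 of 9 days, with 2, 4 and 2 arrays. With day as a fixed block, which leaves fewer degrees of freedom, 237 probesets passed and 210 of them were among the 530. Dntt, Bex1, Usp39, Dtx1 and Nrarp kept their call in that fit, while genes that lost it included Notch1, Hes1, Ptcra, Endou, Cd4, Oas1a, Oas2, Usp18, Ifi47, Myc, Nr4a1, Ncapd2, Tpx2, Srm and Bex2, none of them with a change of sign.

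Dntt was among the 24 genes with the largest differences, 12 on each side, taken from genes that passed the test without overlap of the strains and averaged 100 or more in the higher strain. Its signal was 4339.7 at the lowest, 5074.2 at the median and 10413.7 at the highest on the 6 NOD arrays, and 226.4, 585.05 and 712.6 on the 6 B10 arrays. Every NOD array lay far above every B10 array. The log2 difference was 3.53 (SE 0.32, limma adjusted p = 1.38e-07), 11.5-fold, with 3.08 in TCR and 3.97 in TCR insHEL mice and 3.52, 3.31 and 4.34 within the 3 shared days. The gene's other 2 probesets gave 3.25 and 1.13 and were also called. Of 17 measured genes of V(D)J recombination and end joining Dntt was the only one called, with a median of -0.12 over the list against -0.0141 over all genes. Rag1, which cuts the receptor loci, lay at 779.7 to 1631.7 on NOD and 758.9 to 1229.3 on B10 arrays (log2 difference 0.21, adjusted p = 0.658), and the ranges overlapped.

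Bex1 gave 546.3, 722.95 and 1390.2 (lowest, median and highest) on NOD arrays and 40.4, 57.6 and 93.1 on B10 arrays. The groups did not overlap and the log2 difference was 3.66 (SE 0.26, limma adjusted p = 2.72e-09), with 3.25, 3.62 and 3.71 within the shared days. Clic4 stood at 490.2, 580.4 and 809.0 on NOD arrays against 55.8, 82.4 and 178.3 on B10 arrays, also without overlap. Its log2 difference was 2.77 (SE 0.20, adjusted p = 3.65e-09), and the other 2 probesets of the gene, at 1.21 and 1.97, were called in the same direction. Tmem87a, a Golgi membrane protein, was higher by 2.64 (adjusted p = 1.92e-06), from 28.7 to 59.3 on B10 arrays to 156.8 to 352.8 on NOD arrays. AI506816, a gene named only by its expressed sequence tag, was at 89.4 to 267.1 on NOD arrays and at 2.5 to 13.1 on B10 arrays, so its B10 level was near background. Against a B10 signal set to 32, the limit of the filter, its NOD level was at least 4.41-fold higher. The other genes on this side included Cd207, a C-type lectin of Langerhans cells, Fyttd1, an mRNA export adaptor, and the histone gene H2bc18. With them stood Scpep1, a serine carboxypeptidase, the glutaredoxin gene Glrx, the splicing factor gene Slu7 and Cryz, a quinone oxidoreductase. Cd207 and H2bc18 had a B10 mean under 32, and against a B10 level set to 32 they were higher by 4-fold and 3.15-fold. Single B10 arrays reached 61.1 and 34.7, so these sizes are not lower limits in every group. In TCR insHEL mice the log2 differences of Cd207 and H2bc18 were 1.78 and 1.38 (limma adjusted p = 0.109 and 0.0256). The other 5 genes had log2 differences from 1.87 for Fyttd1 to 1.53 for Cryz. A second probeset gave 1.10 for Fyttd1, 0.61 for Scpep1 and -0.12 for Cryz, none of them called. Of Slu7 the other 3 probesets gave 0.78, -0.30 and -0.33, of which only the first was called.

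Usp39 was lower although its NOD signal of 78.0, 89.45 and 149.4 still stood clear of the filter limit. Its B10 signal was 1108.7, 1429.4 and 1556.5, and no array of one strain came near the other. The log2 difference was -3.65 (SE 0.18, limma adjusted p = 3.94e-12), with -4.18, -3.47 and -3.44 within the shared days, and the second probeset of the gene fell by 1.37 and was called. Ndufs5, a complex I subunit, was lower by a log2 difference of -2.73 (SE 0.24, adjusted p = 8.38e-08), at 33.1 to 54.5 on NOD and 183.4 to 457.4 on B10 arrays. Lrrc1, a leucine-rich repeat scaffold protein, was at 21.7 to 69.5 and 133.7 to 275.1 (-2.42, adjusted p = 3.69e-06), and Tmem14c, a mitochondrial membrane protein of haem synthesis, at 44.2 to 126.2 and 246.3 to 618.7 (-2.21, adjusted p = 0.000854).

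For the other 8 lower genes the NOD mean lay under 32, so their size is given as a bound, with the NOD level set to 32. Trim12a was at least 6.53-fold lower, Slc15a2 at least 7.67-fold, Dapk1, a death-associated kinase, at least 6.83-fold, and Ifi209, a nucleic acid sensor of the interferon-inducible PYHIN family, at least 6.64-fold. Trim12a and Ifi209 have near-identical neighbours in the genome, and signals of such copies can be shared. Parp3, an ADP-ribosyltransferase of DNA repair, was lower by at least 4.08-fold, Myl10, a myosin light chain, by at least 4.01-fold, Sqor, a mitochondrial sulfide oxidoreductase, by at least 3.54-fold and Apoe, a lipid carrier, by at least 3.48-fold. Slc15a2 read 10.7 to 16.6 on NOD and 124.8 to 389.9 on B10 arrays, and Dapk1 21.1 to 36.2 and 129.5 to 306.6. A second probeset gave -0.65 for Parp3, -1.47 for Ifi209 and -1.63 for Dapk1, none of them called. The bounds of these genes hold only for the probeset of highest mean signal. Of the 24 genes with the largest differences 16 were called in the test of TCR mice, 23 in that of TCR insHEL mice and 15 in both. Of all kept probesets 1.13% were called in TCR mice and 3.93% in TCR insHEL mice. The 24 genes were chosen on these same DP arrays, so their counts are not independent support.

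**Figure D1:**
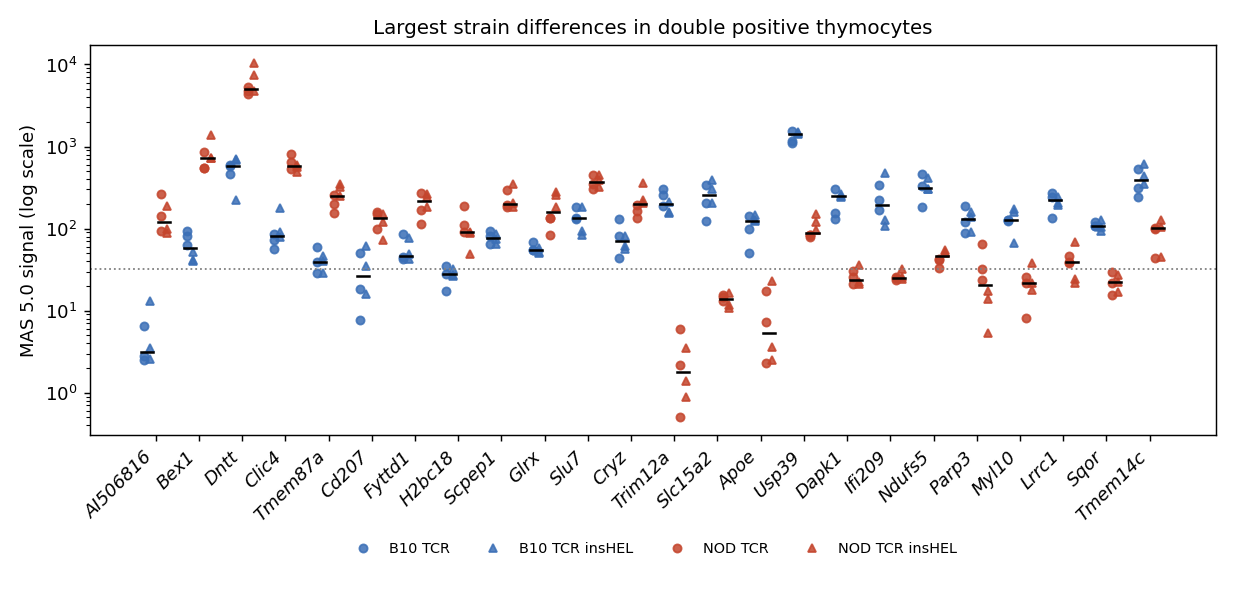
MAS 5.0 signal on a log scale for the 12 genes most above and the 12 most below B10 in NOD DP thymocytes, with 1 point for each of the 12 arrays, a bar at the median of 6 arrays and a dotted line at the filter limit of 32. For Dntt the NOD arrays run from 4339.7 to 10413.7 and the B10 arrays from 226.4 to 712.6, while for Trim12a the NOD arrays run from 0.5 to 6.0, far under the limit.

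Genes of the Notch pathway that were called were all lower in NOD. Of 22 measured members 5 were lower and 0 higher (22.7%, where 4.35% of all genes were called), and the median over the list was -0.0934, so the list as a whole did not lie far from all genes. The 5 were 2 receptors and 3 targets. Of the targets, Hes1 passed the filter only through B10 groups, where it was higher, so its place in this share is not independent support. Notch1, the receptor of early thymocytes, had a signal of 94.0, 288.2 and 380.0 (lowest, median and highest) on NOD arrays and 419.5, 728.5 and 1699.4 on B10 arrays, without overlap (log2 difference -1.55, SE 0.38, limma adjusted p = 0.0165). With day as a fixed block its difference was -1.24 (adjusted p = 0.22). Its second probeset gave -0.60 and was not called. Notch3, a second receptor, lay at 80.6 to 243.4 and 185.2 to 676.7, which overlap (-1.17, adjusted p = 0.0484).

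The target genes moved the same way. Dtx1, which encodes the Deltex ubiquitin ligase, read 79.8, 176.8 and 236.3 on NOD and 447.2, 592.45 and 1001.2 on B10 arrays. The groups did not overlap and the difference was -1.90 (SE 0.26, limma adjusted p = 5.63e-05), or -1.69 in TCR and -2.11 in TCR insHEL mice. Nrarp, a feedback inhibitor of Notch, read 58.9, 66.25 and 79.4 against 92.0, 119.25 and 144.1, also without overlap (-0.74, SE 0.15, adjusted p = 0.00376). Hes1, a repressor switched on by Notch, was at 5.8 to 41.7 on NOD and 33.4 to 80.8 on B10 arrays, mostly near background. Its ranges overlap, and against a NOD level set to 32 it was 1.59-fold lower (limma adjusted p of the fitted difference = 0.0172). The DNA-binding partner Rbpj was at 136.5 to 202.1 and 147.5 to 180.6 (0.05, adjusted p = 0.855), and the protease Adam10, which cleaves Notch, gave 0.40 (adjusted p = 0.483). Without NOD TCR insHEL DP replicate 1 the count was 4 of 22 and the list median 0.0165, and with the 3' to 5' ratio as a covariate, where Notch1 and Hes1 lost their call, the count was 3.

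Ptcra, Il2ra and Endou, from the DP identity and cytokine receptor lists, were also lower. Ptcra, the pre-TCR alpha chain that pairs with TCR beta in immature cells, read 91.1, 138.15 and 159.6 on NOD and 221.0, 325.7 and 492.8 on B10 arrays. No array overlapped and the difference was -1.28 (SE 0.26, limma adjusted p = 0.00376), and -0.98 with day as a fixed block (adjusted p = 0.143). Il2ra, the CD25 chain of double negative cells, was at 21.6, 29.9 and 51.4 in NOD and 81.3, 105.1 and 143.1 in B10 (-1.70, SE 0.20, adjusted p = 4.59e-06). Endou, a poly(U)-specific endoribonuclease, read 571.8 to 1032.6 against 1268.9 to 2034.6 (-1.01, adjusted p = 0.0042), and both of its probesets were called. Double negative markers were present at low levels: 8 of 12 were kept, with a summed signal of 303.1 to 442.7 on NOD and 488.8 to 670.4 on B10 arrays. The 3 called (37.5%, against 4.35% of all genes) were Nrarp, Il2ra and Hes1, all lower in NOD, though Hes1 passed the filter only through B10 groups. Of the other 5, Cd44, Kit and Lyl1 were lower and Gata2 and Spi1 higher in mean signal, none of them called. What part a remainder of earlier cells has in the Notch result was not tested.

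Because these genes moved together, promoters of 7 of them (Notch1, Notch3, Dtx1, Nrarp, Hes1, Ptcra and Il2ra) were searched on both strands for TGGGAA, a core of sites bound by RBPJ, in windows from 250 bases before to 50 bases after the start (RefSeq, GRCm38.p6). A window was given for 6 of the 7, and only that of Ptcra held the letters, at 2 places. Both places are printed 5′ to 3′ on the gene's strand (minus), with the match in capitals.
Ptcra chr17:46763779-46763808: cccagaaagcacTGGGAActagggggtaga
Ptcra chr17:46763727-46763756: gggtctgtgatcTGGGAAgcagtgtagtag
The same letters stand in 6896 of 27025 windows (25.5%), so a match is common and describes the sequence only.

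**Figure D2:**
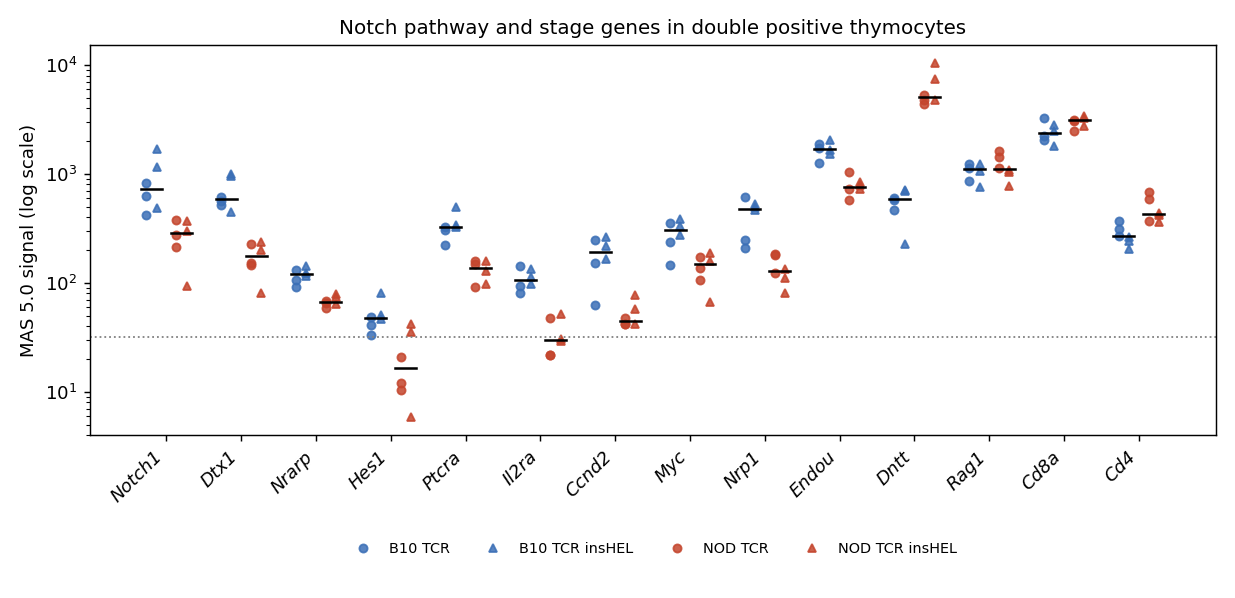
MAS 5.0 signal on a log scale of Notch pathway genes, other lower genes and DP genes on the 12 arrays, with a bar at the median of 6 arrays and a dotted line at the filter limit of 32. Notch1, Dtx1, Nrarp and Ptcra show no overlap of the strains, all lower in NOD, while the ranges of Rag1 and Cd8a overlap.

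Identity genes of DP cells mostly did not pass the test. Of 25 measured, Dntt and Cd4 were higher, Ptcra and Endou lower and 21 not called, with a list median of 0.197. The share called was 16%, against 4.35% of all genes. Cd4, the coreceptor, read 361.5 to 676.0 on NOD and 205.8 to 368.4 on B10 arrays (0.79, limma adjusted p = 0.0398), but the call was lost under 13 of 27 alternatives, among them leaving out NOD TCR insHEL DP replicate 1. Cd8b1, the other CD8 chain, read 136.5 to 481.9 and 515.5 to 986.6 without overlap, yet did not pass (-1.15, adjusted p = 0.222). The summed signal of the identity genes was 22440 to 34850 on NOD and 19100 to 21170 on B10 arrays, of which Dntt holds a large part in NOD. Of 17 genes of single positive maturation 15 were negative with a median of -0.406, and the mean of the list lay from 0.0288 to 0.348 on B10 arrays and from -0.523 to 0.144 on NOD arrays, the highest NOD array being TCR insHEL replicate 3. Their summed signals of 5560 to 7882 and 5701 to 7476 overlap. The GTPase gene Gimap3 was the only one called (-0.57, adjusted p = 0.0435), and that call was lost under 15 of 27 alternatives.

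Interferon-induced genes that passed the test were lower in NOD, with 1 exception. Of 52 measured 8 were lower and 1 higher (17.3% called, against 4.35% of all genes), 43 had a negative sign, and the median was -0.494 against -0.0141 over all genes (-0.632 in TCR and -0.312 in TCR insHEL mice). Oas1a, a sensor of double-stranded RNA, read 28.3, 66.9 and 211.9 on NOD and 140.6, 170.0 and 216.7 on B10 arrays (-1.24, SE 0.28, limma adjusted p = 0.0114). Usp18, which removes the ubiquitin-like ISG15, read 29.6, 37.9 and 166.3 against 90.2, 135.3 and 191.0 (-1.51, SE 0.35, adjusted p = 0.0118). In both genes 1 NOD array, TCR insHEL replicate 3, held the highest NOD value and lay among the B10 arrays, and within the day it shared with a B10 array their differences were 0.33 and 0.23.

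Oas2, a relative of Oas1a, was at 6.6 to 29.4 on NOD and 28.6 to 59.5 on B10 arrays, near background, which bounds its difference at 1.28-fold or more (limma adjusted p = 0.00529). The RNA sensor Ifih1 (-1.11), the nucleotide kinase Cmpk2 (-0.92), the transcription factor Irf9 (-0.80), the ADP-ribosyltransferase Parp14 (-0.72) and the GTPase Irgm2 (-0.72) were also called lower. Against these, the GTPase gene Ifi47 was higher in NOD, at 687.7 to 1726.0 against 369.5 to 537.3 without overlap (1.15, adjusted p = 0.00164). Mx1 and Irf7, common interferon targets, gave -0.24 and -0.40 and were not called. The mean of the list on NOD TCR insHEL replicate 3 was 0.308 around the mean of all 12 arrays, inside the B10 range of 0.124 to 0.359, while the other NOD arrays lay from -0.544 to -0.0867. Without that array 10 genes were lower and 1 higher with a median of -0.667, and without NOD TCR insHEL DP replicate 1 the counts were 6 and 1 with a median of -0.534.

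**Figure D3:**
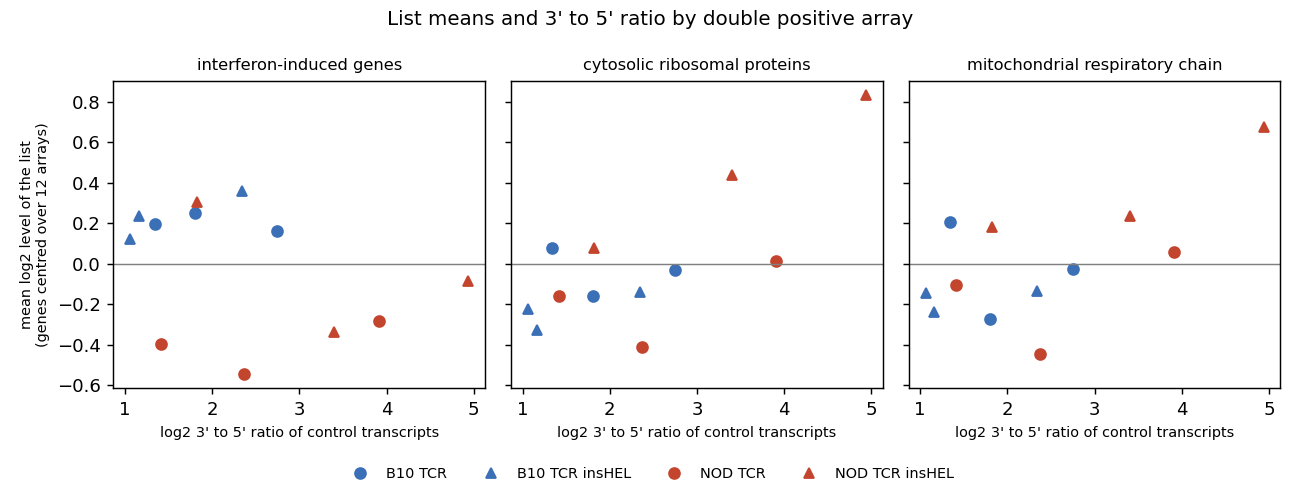
Mean log2 level of 3 gene lists on each of the 12 DP arrays, centred for each gene over the arrays, against the log2 ratio of 3' to 5' control signals. For interferon-induced genes the 6 B10 arrays lie from 0.124 to 0.359 with 1 NOD array among them, and for ribosomal proteins the highest point, 0.835, is the array of the highest ratio, 4.94.

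Among surface glycoproteins, members of the SLAM family of lymphocyte receptors differed in both directions. Slamf6 was higher in NOD, at 175.0, 190.0 and 229.2 against 55.3, 87.4 and 108.2 (1.25, SE 0.19, limma adjusted p = 0.000178), though a second probeset gave -0.55 and was not called. Slamf1 was lower, at 70.3, 82.8 and 111.8 against 126.3, 167.75 and 243.5 (-0.95, SE 0.18, adjusted p = 0.00239). Neither gene overlapped between the strains at these probesets. Cd84 (-0.82, adjusted p = 0.0321, a call lost under 14 of 27 alternatives) and Ly9 (-0.66, adjusted p = 0.0492), also of the SLAM family, were lower. Cd27, a TNF receptor family costimulator, was higher at 730.1 to 1005.7 against 354.7 to 604.3 (0.97, adjusted p = 0.000389), as was the immunoglobulin family receptor Cd96 (0.61, adjusted p = 0.0492). In all 3 of 24 such genes were higher and 3 lower (25% called, against 4.35% of all genes), with a median of 0.115. Without NOD TCR insHEL DP replicate 1 the counts were 2 and 1.

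Genes of TCR signalling and of cell death mostly did not pass. Of 20 genes of the TCR complex and proximal signalling only Cd4 was called, and CD3 chains gave 0.28 for Cd3d, 0.39 for Cd3e and 0.53 for Cd3g. Of 21 early TCR-induced genes Myc, a growth regulator (-1.01, limma adjusted p = 0.0141), and Nr4a1, the orphan receptor Nur77 (-0.87, adjusted p = 0.0438, lost under 15 of 27 alternatives), were lower and the median was -0.164. The ranges of both overlapped, at 66.0 to 189.3 against 146.4 to 388.9 for Myc and 37.5 to 142.3 against 80.7 to 226.3 for Nr4a1. Socs3, an inhibitor of cytokine signals, was the only 1 of 23 genes that restrain TCR or cytokine signals to be called (-1.51, adjusted p = 0.00295). In the BCL2 family, which sets the threshold of mitochondrial apoptosis, Bnip3 alone of 15 was called, at 84.0, 108.1 and 136.4 on NOD and 34.2, 46.05 and 48.5 on B10 arrays without overlap (1.30, SE 0.17, adjusted p = 2.35e-05). Bcl2l11, which encodes the killer protein Bim, gave 0.15 (adjusted p = 0.838) and Bcl2 gave 0.05. Of 29 caspases and death receptors Casp9, the apoptosome caspase, was lower (-0.89, adjusted p = 0.0493), with overlap between the strains and the call lost under 16 of 26 alternatives. Its second probeset went the other way, at 0.30, and was not called. Shares called were 5% for the TCR complex, 9.52% for early TCR-induced genes and 4.35% for genes of restraint. They were 6.67% for the BCL2 family and 3.45% for caspases and death receptors, against 4.35% of all genes.

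Few cell cycle genes were called, at shares near that of all genes (4.35%). Ccnd2, the D-type cyclin of proliferating lymphocytes, read 42.3, 44.95 and 77.0 on NOD and 61.9, 192.25 and 261.5 on B10 arrays (-1.68, SE 0.27, limma adjusted p = 0.000383), and 4 further probesets of the gene were called lower. It was the 1 call among 41 genes of G1/S and DNA replication (2.44%). Ncapd2, a condensin subunit, was at 88.8, 288.75 and 395.5 against 739.1, 1039.55 and 1212.4 without overlap (-1.88, SE 0.30, adjusted p = 0.00027). With the spindle genes Nek2 (-1.10, adjusted p = 0.0122) and Tpx2 (-0.98, adjusted p = 0.00406) it made up the 3 calls among 41 genes of G2/M and mitosis (7.32%), whose median was 0.0136.

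Metabolic genes showed single large differences too. Pdk1, the kinase that holds pyruvate back from mitochondria, read 55.3 to 105.0 on NOD and 239.5 to 395.8 on B10 arrays (-1.82, SE 0.19, limma adjusted p = 1.49e-06), and both of its probesets were called. Srm, spermidine synthase, was lower at 143.5 to 534.9 against 544.0 to 1091.9 (-1.18, adjusted p = 0.00518), as was Smox, spermine oxidase, at 72.3 to 89.8 against 105.3 to 153.5 (-0.55, adjusted p = 0.0393), though the Smox call was lost under 16 of 27 alternatives. Gclm, a subunit of glutathione synthesis, was lower (-1.34) and the glutathione transferase gene Mgst2 higher (0.92), the latter call being lost under 13 of 27 alternatives. The chaperone genes Pdia3 (-1.49) and Dnajb2 (-0.73) and the lipid genes Acss2 (-0.69) and Sc5d (-0.65) were lower, among 43 chaperone and 28 lipid genes measured. The Sc5d call was lost under 10 of 27 alternatives.

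Cytosolic ribosomal protein genes had a median of 0.302 with 39 of 44 positive, but only Rps6 was called (1.49). Respiratory chain genes had a median of 0.346 with 55 of 69 positive and only Ndufs5, lower, was called. In TCR mice these medians were -0.144 and -0.0795 and in TCR insHEL mice 0.748 and 0.744. Without NOD TCR insHEL DP replicate 1 they were 0.134 and 0.169, with the 3' to 5' ratio as a covariate 0.0937 and 0.146, and after quantile normalization -0.0194 and 0.106. Both lists stood highest on the array with the highest 3' to 5' ratio, NOD TCR insHEL replicate 1, at 0.835 and 0.675.

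The remaining lists held few calls. Of 26 genes of the p53 pathway the chaperone-like gene Pdrg1 was lower, a call lost under 10 of 27 alternatives. Its second probeset gave -0.51 and was not called. Of 20 genes of MHC class I processing Pdia3 was lower with a list median of -0.341, and of 27 cytokine and chemokine receptors Il2ra was lower. Of 25 tripartite motif genes Trim16 was higher (0.74) and Trim12a lower.

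**Figure D4:**
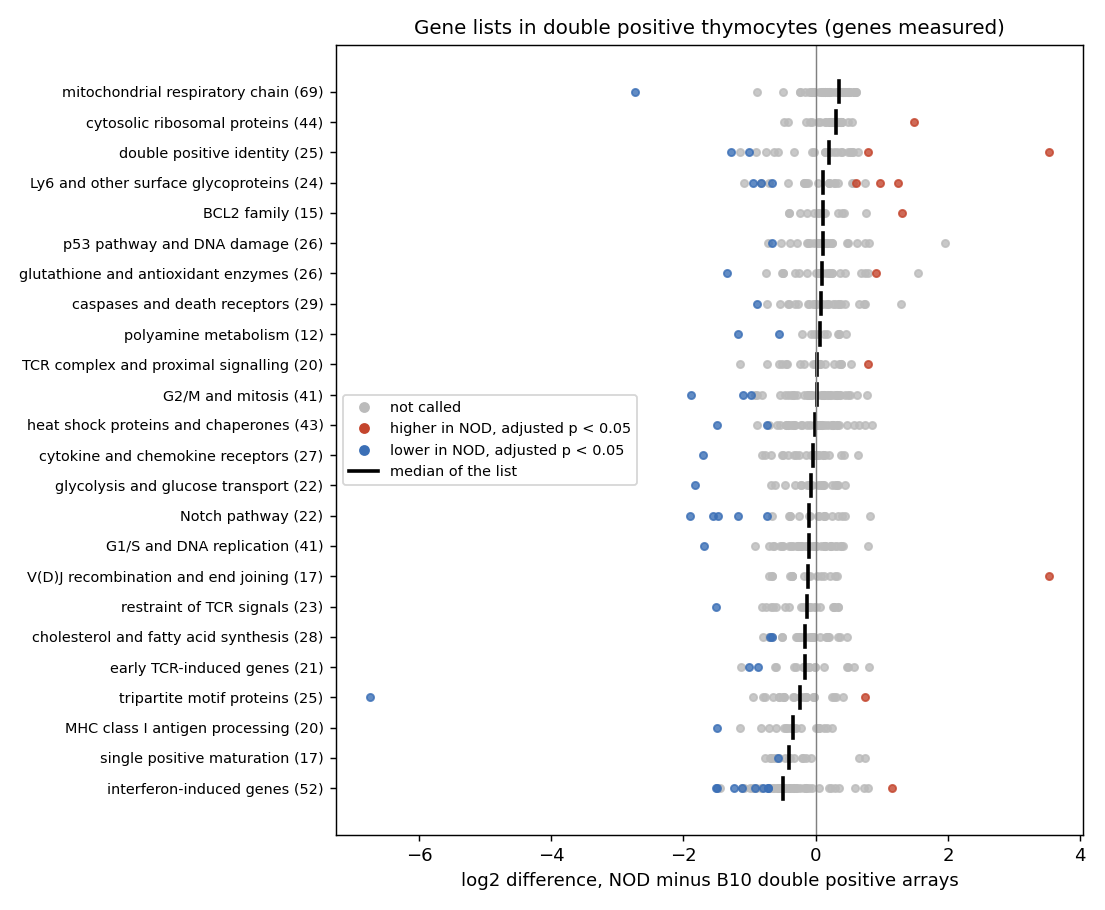
Log2 difference of every measured gene in 24 lists, with 1 point for each gene, coloured by the limma call, a black bar at the list median and the number of genes measured in brackets. The interferon-induced list has the lowest median, -0.494, and all 5 called Notch pathway genes lie below 0.

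Only 1 stretch of at least 4 neighbouring measured genes was called in 1 direction, on the X chromosome. It held Bex2, Bex4, Tceal8 and Bex1, adaptor proteins of a family of neighbouring copies, all higher in NOD (limma adjusted p from 2.72e-09 to 0.0025). Apart from Bex1 (3.66) their B10 means lay under 32. With the B10 level set to 32, Bex2 was 1.76-fold, Bex4 1.17-fold and Tceal8 1.79-fold higher. Bex4 read 23.2 to 57.7 on NOD and 1.6 to 19 on B10 arrays, and Bex2 41.2 to 71.4 and 15.3 to 37.6, so both were near background in B10 and neither overlapped. Bex4 passed the filter only through the NOD TCR insHEL DP group, where it was highest. Bex2 passed only through NOD groups, with B10 means of 29.5 in S+ and 28.5 in S- cells. The stretch of 4 rests on both, so its shared direction was favoured by the filter. In TCR mice the Bex4 difference was 0.99 (limma adjusted p = 0.6). On the X chromosome 8 of 222 genes were higher (3.6%) and 0 lower, where 1.79% of all genes were higher and 4.35% called in either direction. Shorter runs of 3 neighbours included Rasal1 (-1.89), a Ras GTPase-activating protein, with Dtx1 and Oas2 on chromosome 5, so the Notch and interferon lists each hold a call from this run.

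The study listed 47 candidate probesets near loci linked to defective deletion, chosen on these same arrays, so their share is not independent evidence. Of these 19 were lower, 8 higher and 20 not called (57.4% called). The largest on each side were Trim12a, described above, and Rbm39, an RNA-binding protein, of which 2 of the 4 listed probesets were called. Their B10 means lay under 32, and with the B10 level set to 32 they were higher by 6.47-fold and 4.99-fold. Single B10 arrays lay above 32, so these sizes are not lower limits in every group. In TCR mice alone the log2 differences of the 2 probesets were 4.27 and 3.94. In TCR insHEL mice they were 2.09 and 1.49 (limma adjusted p = 0.073 and 0.059), and within the third shared day 0.55 and 0.79. On those 2 probesets the NOD arrays ran from 59.0 to 700.4 and from 62.2 to 413.4, against B10 ranges of 7.2 to 40.1 and 10.2 to 35.4. The gene's other listed probesets gave 1.16 and 1.52 without a call. Those that were not listed gave 0.0081 (NOD mean 141.8, B10 mean 134) and -1.59, also without a call. Prim2, a primase subunit, read 22.2 to 67.1 on NOD and 140.2 to 248.5 on B10 arrays (-2.45, limma adjusted p = 3.92e-06), while its second probeset gave -0.34. Pdcd1, which encodes the inhibitory receptor PD-1, gave -0.12 (adjusted p = 0.747), and 2 listed probesets of Bcl2l11 gave -0.37 and -0.05, neither called.

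Probesets of 1 gene did not always differ alike. Of 204 genes with more than 1 kept probeset and at least 1 call, all probesets were called in 25, exactly 1 was called in 158, and a probeset of opposite sign was present in 54, none of them called the opposite way. The median size was 1.25 at the most significant probeset and 0.466 at the others. Ets1, a transcription factor of T cells, shows this: at its probeset of highest mean signal NOD read 2057.5 to 2365.2 and B10 1721.0 to 2474.3 (0.20, limma adjusted p = 0.536). Another of its probesets read 397.4 to 1368.7 against 31.7 to 96.8 (3.63, adjusted p = 1.06e-06). Runx1, a transcription factor of T cell development, gave 0.49 at one probeset and -3.27 at another, where NOD read 3.7 to 17.7 and B10 50.5 to 108.7. Arpp21, an RNA-binding phosphoprotein, gave -0.06 and 2.04. Whether sequence that differs between the strains within these probes has a part in such splits was not tested.

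SP arrays, from which no DP difference was taken, held the strain difference for most of these probesets. The tests at both stages share 1 estimate of the spread, so a call at both is not independent, while the signs come from separate arrays. In SP cells 994 probesets passed (7.74%), 443 higher (3.45%) and 551 lower (4.29%), and of the 530 DP calls 478 had the same sign (90.2%, where 61.7% of all probesets did), 272 were also called and 0 were called the opposite way. Those 272 are 51.3% of the DP calls and 27.4% of the SP calls. Of the 24 genes with the largest differences 23 had the same call in SP cells, with Dntt at 3.93, Clic4 at 2.95 and Usp39 at -3.63. One SP array, NOD TCR SP replicate 3, correlated more with B10 (0.902) than with its own group (0.845), and without it 480 of the DP calls had the same sign and 296 were called.

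In a direct test of DP against SP strain differences 25 probesets passed (0.195%), 9 with a positive DP minus SP value (0.0701%) and 16 with a negative one (0.125%), of which 10 were DP calls. Ptcra was lower in NOD DP cells (-1.28) but stood at 0.67 in SP cells, a difference of -1.95 (SE 0.37, limma adjusted p = 0.0236). Cdk20, a cell cycle related kinase, was at 4.9 to 7.7 on NOD and 24.9 to 50.6 on B10 DP arrays, and its SP means were no higher than 23.7 in any group. It passed the filter only through a B10 DP group, and with its NOD level set to 32 it was at least 1.22-fold lower in DP cells, so the size of its interaction (adjusted p = 0.00762) was not measured. Nrp1, a semaphorin receptor, read 81.3, 129.25 and 183.0 on NOD and 210.2, 480.75 and 610.6 on B10 DP arrays (-1.53, SE 0.23), against 0.05 in SP cells (interaction adjusted p = 0.0449). The POU factor gene Pou6f1 gave -1.13 in DP and 0.30 in SP cells (adjusted p = 0.0418).

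Ckb, the brain creatine kinase, was lower at both stages and more so in SP cells, at -1.61 in DP and -3.47 in SP cells (limma interaction adjusted p = 0.00567). Myo6, an unconventional myosin, was under 32 in NOD at both stages, with means of 18.2 in S+ and 14.4 in S- cells, and was at least 1.91-fold lower in DP cells. Its B10 signal was 35.9 to 90.1 on DP arrays and had means of 263 in S+ and 415 in S- cells (interaction adjusted p = 0.00667), so the fitted size of the Myo6 interaction rests on NOD values near background. Cxcr4, the CXCL12 receptor, overlapped between the strains in DP cells (0.15) and differed by 1.99 in SP cells (adjusted p = 0.0418). When each of the 24 arrays was left out in turn, Cdk20, Ckb and Myo6 kept the interaction call every time, Ptcra 18 times, Cxcr4 9, Pou6f1 7 and Nrp1 6. For Dtx1 and Notch1, at -0.16 and 0.72 in SP cells, the interaction missed the threshold (adjusted p = 0.051 and 0.091), which does not show that the stages were alike.

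**Figure D5:**
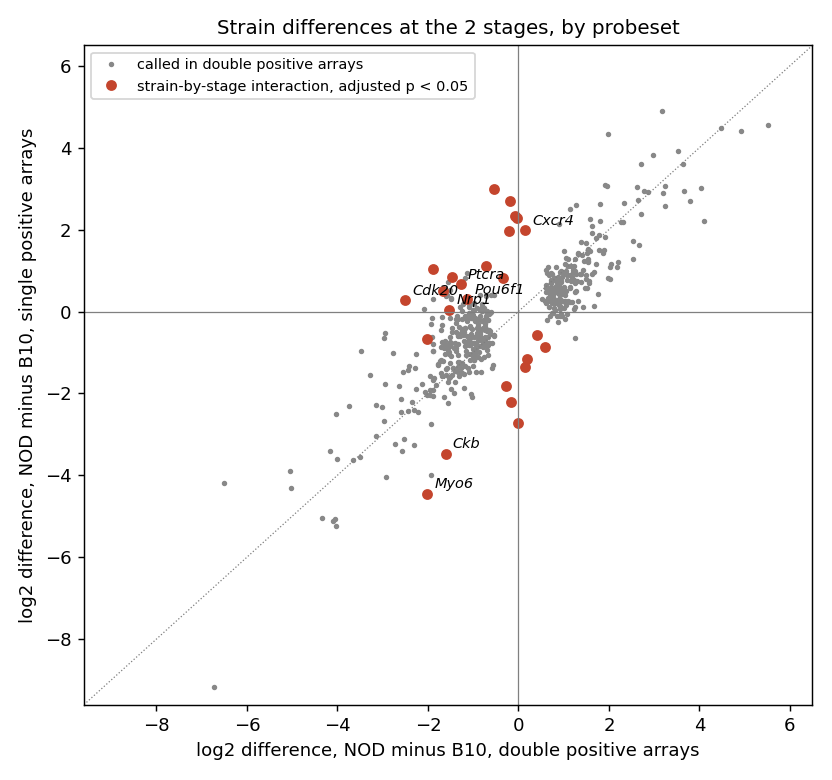
Log2 difference between the strains in SP arrays against that in DP arrays, with 1 point for each probeset called in DP arrays and larger points for the 25 that passed the interaction test, all as fitted values, also where a strain's signal lay under 32 as for Cdk20 and Myo6. Most points lie near the diagonal, while Ptcra, Cdk20, Nrp1 and Pou6f1 lie below 0 on the DP axis and above 0 on the SP axis and Ckb and Myo6 lie further below 0 in SP arrays.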

How the data were processed

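mRNA of 24 pools of sorted thymocytes was amplified in 2 rounds and hybridized to Affymetrix 430A arrays. The deposited values are MAS 5.0 signals, linear and scaled by the authors within each array, for 22690 probesets. Here controls were dropped (64), zeros (33) were replaced by 0.1, and the log2 signals of each array were standardized to a shared mean and spread. The low-signal filter kept 12838 probesets that reached 32 on every array of any of the 8 groups, in place of present calls. Gene names came from the array annotation, updated through RefSeq (20380 probesets with 1 symbol), and a gene was represented by its probeset of highest mean signal.

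Strains were compared in limma 3.58.1 (R 4.3.3), with 6 group means over 24 arrays, or 8 for the TCR and TCR insHEL contrasts, and p-values were adjusted by Benjamini and Hochberg over all kept probesets at 0.05. Pools are labelled as replicates, so p-values measure the spread between sorted pools. That spread also holds differences between hybridization days and, with 6 means, any difference between TCR and TCR insHEL DP pools. Named were the 12 genes of largest difference on each side, the called members of each list (the 4 of smallest p where more were called), DP identity genes, the study's candidates, DP calls that also passed the interaction test (up to 5 on each side) and members of stretches of 4 or more called neighbours. Notch3, Ly9, Cd96 and other list calls past the 4, marker calls, Rasal1 and the genes given as not called outside these groups were chosen after their values were seen. The members and lists were chosen with earlier results of these data known. The test was tested on simulated data. Alternatives covered the normalization, the filter, the day of hybridization read from array setting files, the 3' to 5' ratio, array weights, the replicate block and leaving out each array. Arrays give no read depth, and their number limits the precision.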

Additional observations from a re-analysis of the deposited data

Results flagged for a closer look

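Among 262 groups of 6 DP arrays, 2 for each named probeset, 21 (8.02%) held an array that stood apart from the other 5 by more than Dixon's critical value, where chance gives about 1 in 20. B10 TCR insHEL DP replicate 1 held 6 of these, B10 TCR DP replicates 1 and 3 held 4 each and NOD TCR insHEL DP replicate 1 held 3. On B10 TCR insHEL DP replicate 1 the signals that stood apart were 1123 for Cd24a (others 1607 to 1723), 664.9 for Pdrg1 (384 to 446.5), 111.1 for a Bcl2l11 probeset (41.5 to 57.4), 66.1 for Myl10 (123.8 to 174), 7.4 for Tceal8 (20.7 to 33.4) and 1.6 for Bex4 (8.3 to 19). On B10 TCR DP replicate 1 they were 2614 for Ccr9, 183.2 for Pdia3, 68.1 for Swap70 and 49.8 for Apoe. On B10 TCR DP replicate 3 they were 80.7 for Nr4a1, 61.9 for Ccnd2, 30.3 for Trim16 and 5.6 for Runx1. NOD TCR insHEL DP replicate 1 read 88.8 for Ncapd2 (others 239.7 to 395.5), 32.1 for Ifi209 and 24.9 for Tox (95.9 to 127.8). NOD TCR insHEL DP replicate 3 read 166.3 for Usp18 (others 29.6 to 44) and 15.3 for Runx1. NOD TCR DP replicate 1 read 232.7 for 6030458C11Rik, and NOD TCR DP replicate 2 read 1124 for Hspa8.

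The strain difference itself differed between DP and SP arrays for 7 named genes (limma interaction, DP minus SP on the log2 scale): -2.788 for Cdk20, -1.947 for Ptcra, -1.839 for Cxcr4, -1.577 for Nrp1, -1.432 for Pou6f1, 1.858 for Ckb and 2.438 for Myo6. NOD signals of Cdk20 and Myo6 lay under the filter limit of 32, so these 2 sizes are fitted values and not measured ones.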

How the results depend on the processing

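The count of 530 lay between 420 and 650 under the other tests tried, except with hybridization day as a fixed block (237, of which 210 were shared, with the call lost for 40 of the named results) and by the methods' analysis of variance at unadjusted thresholds (1013, of which 434 were shared, and 510 after Benjamini-Hochberg). It was 381 to 588 when each DP array was left out. The replicate block, for numbers not taken as pairs, gave 469 (418 shared), 295 for TCR insHEL mice and 14 for the stage interaction, and same-numbered deviations correlated from -0.304 to 0.329. Without a filter the counts were 282 for TCR insHEL mice, 645 for SP cells and 13 for the interaction, which was 79 with signals under 16 set to 16. Day as a random block gave 2 for the genotype interaction. Leaving out 1 array gave 92 to 121 for TCR mice, 170 to 1537 for TCR insHEL mice, 0 to 2 for the genotype interaction, 11 to 79 for the stage interaction and 552 to 2232 for SP cells, the last 2 highest without NOD TCR SP replicate 3. Of 90 called probesets named, 50 were called under every alternative and 0 changed sign in a test. Genes not called changed sign at values near 0: Ets1 at -0.04665 after quantile normalization, a listed Bcl2l11 probeset at 0.07119 and Satb1 at 0.02743 with array weights, and with day as a fixed block Arpp21 at 0.03055, Id1 at 0.1346, Pdcd1 at 0.1396, Runx1 at -0.03004 and Tnrc6a at -0.07. With the 3' to 5' ratio they were Cxcr4 at -0.152, Dnpep at -0.0373, Id1 at 0.03664 and Pdcd1 at 0.102. Within the third shared day the called genes Oas1a and Usp18 stood at 0.3326 and 0.233. With 1 array left out, Satb1 was -0.14 to 0.07395, Id1 -0.1997 to 0.02906, the Bcl2l11 probeset -0.187 to 0.04992, Tox -0.4382 to 0.006126, Arpp21 -0.1463 to 0.004507 and Scg5 -0.01125 to 0.5035. The causes were not tested. Signals under 32 limit the size of a difference, which is then given with that level set to 32.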
